A study of Drosophila melanogaster with 2 samples.

Results

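Binding of GFP-tagged CG15696 was examined at 5 Drosophila melanogaster genes that encode transcription factors: srp, GATAe, grn, fkh and byn. The set is called endoderm and gut factor genes here, a label that does not give the role of each gene. The genes are 5 of 13945 protein-coding genes on the chromosome arms, taken by name from the dm6 gene annotation. The set of names was drawn up with earlier results of these data known. CG15696 encodes a homeodomain protein. Chromatin immunoprecipitation sequencing (ChIP-seq) had been done with an anti-GFP antibody on whole embryos of pooled sex aged 2 to 8 h, from a transgenic line that makes CG15696 with GFP at its C-terminus. There were 2 biological replicates, numbered 1 and 3, of 1 group, and no other genotype or treatment, so no comparison between groups was possible. The chromatin came from all cells of the embryo, so a site cannot be assigned to the gut or to any other tissue, and a few cells with much binding cannot be told apart from many cells with little.

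The Drosophila midgut arises from endoderm at both ends of the embryo, while the foregut and hindgut are ectodermal. GATA factors bind variants of the sequence GATA. Of this family, srp specifies the endoderm and is also needed in fat body and blood cells, GATAe acts after srp in midgut differentiation, and grn is known for its role in shaping the posterior spiracles and in motor axon guidance. The forkhead factor fkh, a FoxA homologue, is needed in the foregut, hindgut and salivary glands. The T-box factor byn, the homologue of Brachyury, is needed for the hindgut.

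The authors filtered their peaks by the irreproducible discovery rate (IDR), which asks whether peaks keep their order between replicates, and the resulting 5354 sites are called the reproducible list here. Each site is placed by its summit, the base the authors marked as its highest point, and has a signal value from the authors. The unit of this signal is not given in the sources used here. Signals are therefore compared within a list and by rank, with 1 the strongest, and not between the lists of the replicates. A gene's territory is its body and 5 kb on either side. Every reproducible site was also a peak of the pooled list, with the same signal and the same rank, so a single rank stands for both lists. The reproducible list thus held the 5354 pooled peaks of highest signal. A peak that missed it had a lower pooled signal, and could still be found in both replicates. The pooled list and those of the replicates ran to 30000 peaks each, and the lowest signal of the reproducible list was 134. Read depth is unknown, so no counting interval is given.

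The sequences of the strongest site of each gene, and of the second site of fkh, are shown. The motif counts below also include sites whose sequences are not shown, and they leave out the byn peak. Each is the 101 bases centred on the summit, on the plus strand of the RefSeq copy of Release 6 (dm6 coordinates), and capitals mark matches to the preset motifs. GATAe has no stronger site than the one it shares with srp, and the sequence for byn is that of its strongest pooled peak, which is not in the reproducible list.
fkh promoter site, 3R:28585438-28585538: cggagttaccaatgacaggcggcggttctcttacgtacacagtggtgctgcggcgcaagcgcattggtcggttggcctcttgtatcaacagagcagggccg
fkh second site, 3R:28586969-28587069: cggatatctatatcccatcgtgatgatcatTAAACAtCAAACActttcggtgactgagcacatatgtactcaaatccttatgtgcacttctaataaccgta
srp upstream site, 3R:15983739-15983839: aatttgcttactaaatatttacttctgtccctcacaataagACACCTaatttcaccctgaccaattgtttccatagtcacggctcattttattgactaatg
srp and GATAe shared site, 3R:16006109-16006209: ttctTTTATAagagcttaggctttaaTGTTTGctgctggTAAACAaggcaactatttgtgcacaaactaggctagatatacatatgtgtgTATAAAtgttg
grn strongest site, 3R:8180560-8180660: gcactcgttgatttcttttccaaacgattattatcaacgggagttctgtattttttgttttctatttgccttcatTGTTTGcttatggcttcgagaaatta
byn pooled peak, 3L:11932801-11932901: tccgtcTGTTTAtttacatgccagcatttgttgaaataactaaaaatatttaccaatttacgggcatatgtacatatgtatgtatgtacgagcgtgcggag

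Of the 5 genes, srp, GATAe, grn and fkh had reproducible sites and byn had none. Over all protein-coding genes 50.8% had at least 1 site in the territory, so having a site is common among genes of any kind. With the equally long list of the strongest peaks of replicate 1 alone, the same count was 4 of 5 (49.3% of all genes), and with that of replicate 3 alone it was 4 of 5 (51.7%). The territories held 10 distinct sites, which made 12 pairs of gene and site because srp and GATAe are neighbours and shared 2. There were 5 sites at srp, 3 at grn, 2 at fkh and 2 at GATAe. At least 2 sites were found at 23.5% of all genes, at least 3 at 9.18% and at least 5, the number at srp, at 1.72%. These genes are longer than most, from 4289 bp for fkh to 34077 bp for grn against a median of 2166 bp over all genes, and longer territories can hold more sites.

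The sites were of middling strength and lay away from start sites. Their ranks ran from 1012 to 4320, with a median signal of 267 against 259 over all reproducible sites, and 5 of the 10 were among the 2677 strongest. Among the 2677 strongest sites, srp, grn and fkh had at least 1, as did 33.5% of all genes. A single site, that of fkh, lay within 500 bp of a protein-coding transcription start site (TSS), the window called promoter here, while 41.9% of all reproducible sites did. Of the 10, 4 were in introns, 2 in the bodies of non-coding genes and 4 in intergenic sequence, the fkh promoter site among these, and none was in an exon. No share over all reproducible sites is given for these 4 kinds of position, so the counts only describe the 10. From the summits to the closest TSS the median distance was 2059 bp, ranging from 224 to 25483 bp, against 954.5 bp over all sites.

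**Figure D1:**
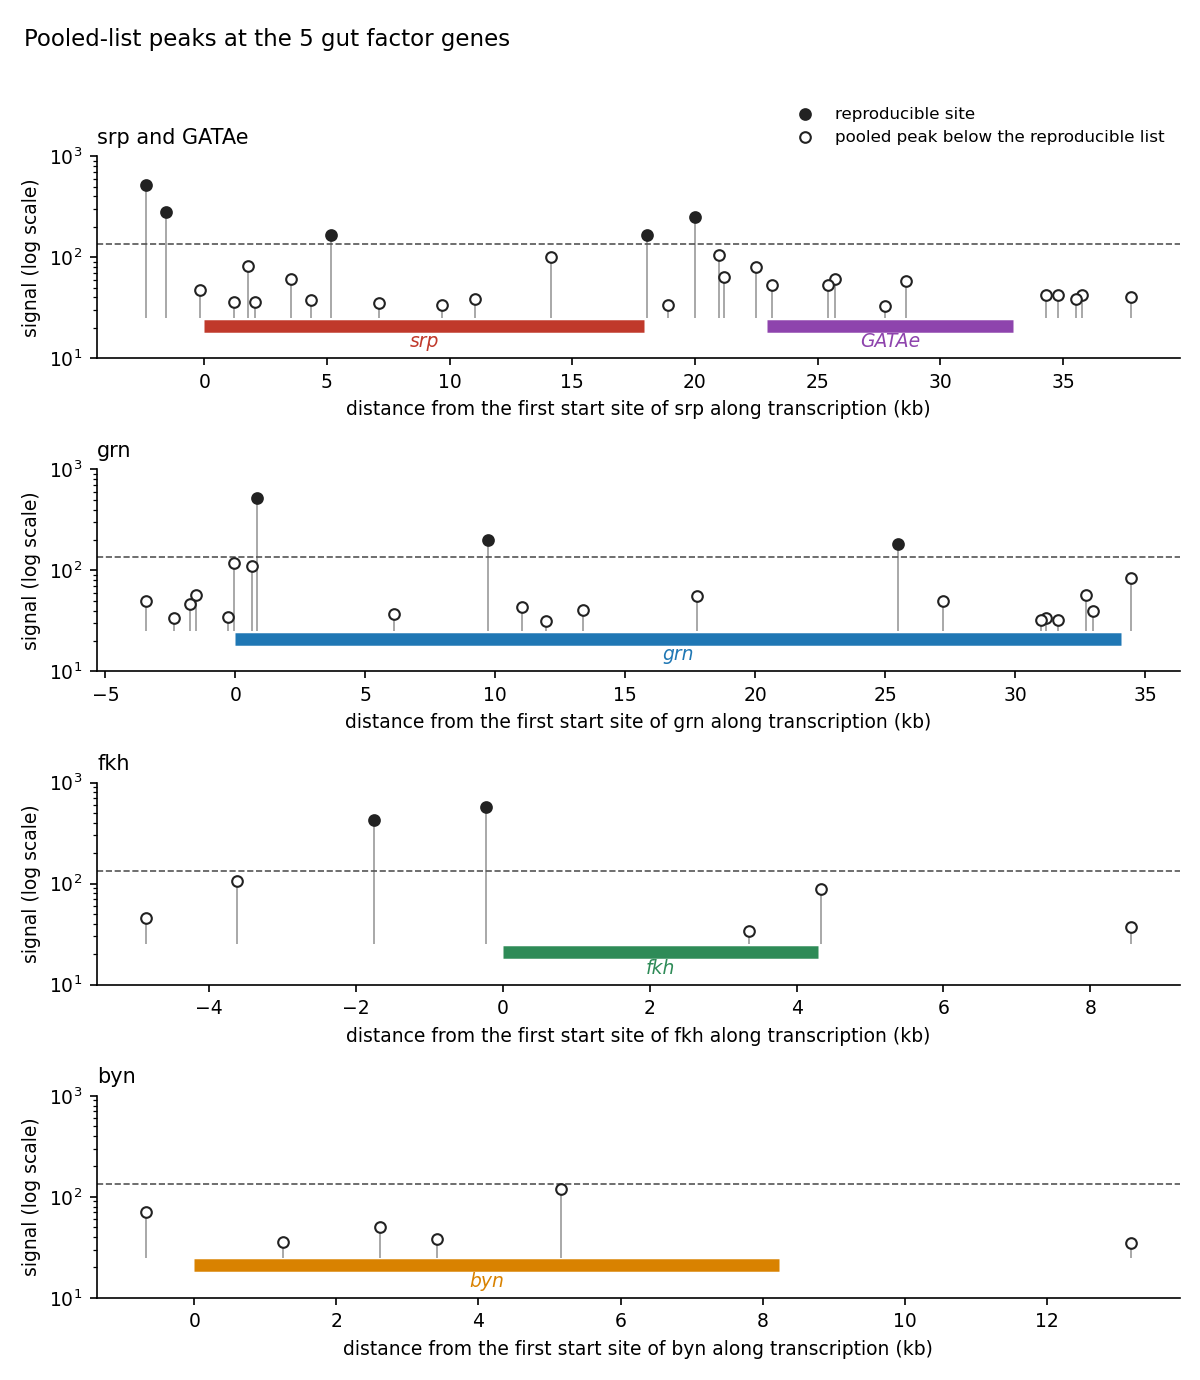
Each panel shows the pooled-list peaks in the territories of the named genes, with distance in kb from the first start site along transcription on the x axis and the authors' signal on a log y axis. Filled points are reproducible sites, open points are pooled peaks below that list, the dashed line is the lowest reproducible signal (134) and coloured bars are gene bodies; the strong sites of srp and fkh lie upstream of the gene, and byn has open points alone.

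The gene srp (FBgn0003507), transcribed from the plus strand of 3R between 15986152 and 16004085, has 4 annotated protein-coding start sites. Its strongest site lay 2363 bp upstream of the first of them, on 3R from 15983631 to 15983894, between Hel89B, the neighbouring protein-coding gene, and srp. Hel89B ends at 15983451, so the site lies closer to that end than to srp and also falls in the Hel89B territory. The nearest TSS is that of srp. The pooled signal of the site was 521 (rank 1165), with a signal of 285 (rank 628) in replicate 1 and 221 (rank 1874) in replicate 3. Replicate 1 placed it higher.

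A second upstream site, on 3R from 15984509 to 15984704, had its summit 793 bp closer to srp, at 1570 bp from the start. It had a pooled signal of 281 (rank 2450), a signal of 83.4 (rank 3542) in replicate 1 and 204 (rank 2042) in replicate 3. It was the single site of the 10 that ranked higher in replicate 3, so the order of these neighbouring upstream sites was clear in replicate 1 and close in replicate 3. Its replicate 1 summit lay 71 bp away, the largest offset between matched summits among the 10.

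The third srp site lay in an intron, which also falls within the non-coding gene lncRNA:CR44133, on 3R from 15991104 to 15991507. Its summit was 1128 bp upstream of the second srp start site, and its pooled signal was 165 (rank 4300). It ranked 3500 in replicate 1 (signal 84.2) and 5130 in replicate 3 (signal 80.9). Outside the territory, the next site upstream lay 11704 bp from srp and 1150 bp from the Hel89B TSS (rank 1485).

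The remaining srp sites lay past its 3′ end, in the stretch of 5019 bp that separates srp from GATAe, and both belong to the territories of both genes. The stronger was on 3R from 16006086 to 16006213, 2074 bp past srp and 2946 bp upstream of GATAe, within the non-coding gene lncRNA:CR42839. Its pooled signal was 253 (rank 2752), with a signal of 149 (rank 1649) in replicate 1 and 102 (rank 4078) in replicate 3. It ranked higher in replicate 1.

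The weaker shared site, on 3R from 16003987 to 16004390, had its summit 104 bp past the end of srp and 4916 bp upstream of GATAe. Its pooled signal was 164 (rank 4320), with a signal of 70.4 (rank 4393) in replicate 1 and 88.2 (rank 4702) in replicate 3, so both replicates gave it a like rank. The peak interval includes 76 of the 99 bp of an annotated G5 transposable element insertion, which starts 126 bp from the summit. The part of that repeat in the signal was not tested.

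GATAe (FBgn0038391), on the plus strand of 3R between 16009105 and 16019133, had no site besides these shared ones. Both are nearer to the GATAe TSS than to any srp TSS, so assignment to the nearest start gives GATAe 2 sites and leaves srp with 3. The body of GATAe held no reproducible site. Within 500 bp of its start sites the pooled list held weak peaks, 470 bp upstream (signal 79.3, rank 9273) and 175 bp downstream (signal 53.6, rank 14783) of the first and 420 bp upstream of the second (signal 60.3, rank 12651). The next GATA gene along the arm is pnr, which begins 6945 bp past GATAe. The next reproducible site in that direction lay 14825 bp past the end of GATAe and 628 bp from a pnr TSS (rank 1387).

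The gene grn (FBgn0001138) lies elsewhere on 3R, from 8147368 to 8181444 on the minus strand, and has 1 annotated start site. All 3 of its sites were in introns. The strongest, from 8180417 to 8180702, had its summit 834 bp downstream of the TSS and a pooled signal of 515 (rank 1183). Its signal was 251 (rank 772) in replicate 1 and 272 (rank 1466) in replicate 3. Replicate 3 also listed a neighbouring peak of signal 133 (rank 3177) within 250 bp of this summit, which the pooled list held below the reproducible list (signal 111, rank 6526), and replicate 1 had no summit within 100 bp of that pooled peak.

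The other grn sites lay deep in the gene. The site from 8171503 to 8171906 was 9739 bp from the TSS, with a pooled signal of 198 (rank 3536), a signal of 91.3 (rank 3153) in replicate 1 and 96.3 (rank 4331) in replicate 3. The site from 8155759 to 8156162 was 25483 bp from the TSS, with a pooled signal of 183 (rank 3862), a signal of 94.3 (rank 3013) in replicate 1 and 85.9 (rank 4826) in replicate 3. These 2 sites had near-equal strength in each replicate. The grn promoter held a pooled peak 64 bp upstream of the TSS that missed the reproducible list (signal 118, rank 6138), and it was present in both replicates, with rank 6690 in replicate 1 and 6721 in replicate 3. Outside the territory, the nearest reproducible sites were 15897 bp upstream (rank 1480) and 20913 bp past the 3′ end (rank 2274).

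The gene fkh (FBgn0000659) lies on 3R from 28580976 to 28585264 on the minus strand. Its promoter site, from 28585374 to 28585609, was the strongest of the 10 and had its summit 224 bp upstream of the first TSS. The pooled signal was 572 (rank 1012), with a signal of 255 (rank 749) in replicate 1 and 323 (rank 1189) in replicate 3, and the summits of both replicates fell on the same base as the pooled one. Among all protein-coding genes, 21.4% had a reproducible site within 500 bp of a TSS of their own.

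The second fkh site was 1755 bp upstream of the TSS and 1531 bp from the first, inside the divergent non-coding gene lncRNA:CR43126, from 28586922 to 28587126. Its pooled signal was 423 (rank 1502), with a signal of 265 (rank 707) in replicate 1 and 158 (rank 2668) in replicate 3. Thus the order of the fkh sites differed between the replicates, with this site ahead in replicate 1 and the promoter site ahead in replicate 3. The body of fkh held no reproducible site. Further off, the next reproducible site lay 9981 bp past the 3′ end of the gene (signal 274, rank 2520), where the fkh TSS is still the nearest at 14117 bp. Behind it lay 2 weaker ones, 15305 bp (rank 4715) and 16525 bp (rank 5079) from that TSS, and the first of these had no partner in replicate 1.

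The gene byn (FBgn0011723), on the plus strand of 3L between 11927693 and 11935919, lies inside CG44837, a gene on the other strand, and close to SdhAL. It had no reproducible site and lay in a stretch free of them. The nearest summits were 104950 bp upstream (rank 4923) and 57338 bp downstream (rank 2962). The upstream one had no partner in replicate 1. Of all protein-coding genes, 5.70% were as far or farther from a site. Of 5348 gaps between neighbouring summits, 78 (1.46%) were at least as wide as this one of 170514 bp, against a median gap of 8423.5 bp.

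The strongest pooled peak at byn came close to the list without entering it. It lay in an intron, 5158 bp downstream of the TSS, on 3L at 11932851, with a signal of 119 (rank 6072), or 88.7% of the lowest reproducible signal. Its signal was 49.4 (rank 7120) in replicate 1 and 64.9 (rank 6357) in replicate 3, so both replicates contained it. A weaker pooled peak 675 bp upstream of the TSS (signal 70.7, rank 10472) was also in both, with rank 10571 in replicate 1 and 11836 in replicate 3. The other 4 pooled peaks in the territory had signals from 34.7 to 49.95 and no summit within 100 bp in either replicate. A pooled peak without a reproducible site was the state of 33.1% of all genes, and 10.4% of those 4611 genes had a peak ranked at least as high as that of byn.

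All 10 sites had a summit within 100 bp in the full lists of both replicates, as did 94.3% of all reproducible sites. Of the 10, 9 ranked higher in replicate 1 than in replicate 3, against 47% of the 5049 matched sites and 56.5% of the 2961 matched sites outside promoters. The log2 ratio of the rank in replicate 3 to the rank in replicate 1 had a median of 0.67 over the 10 sites and -0.05 over all matched sites, whose middle range ran from -0.60 to 0.47 between the quartiles. The second fkh site had the largest ratio, 1.92, and 98.3% of matched sites had a lower one. The strongest srp site had a ratio of 1.58 and the stronger shared site 1.31. These values compare 2 libraries of 1 group. Some of the 10 sites lie close together and share their surroundings, so they are not independent.

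**Figure D2:**
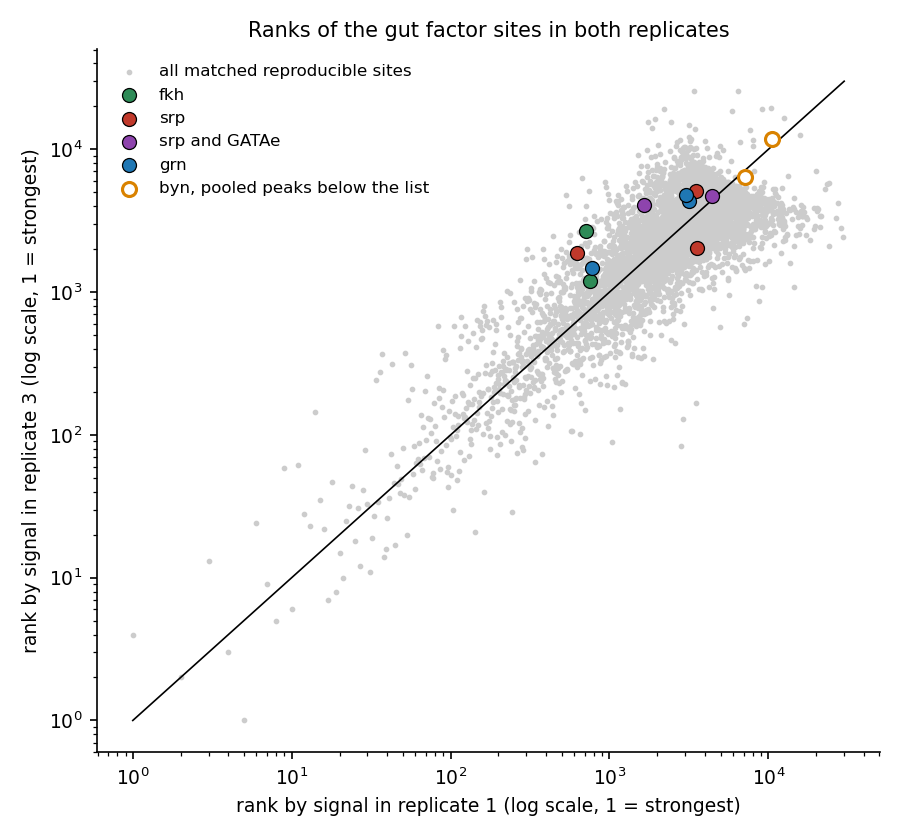
Rank by signal in replicate 1 (x axis) against replicate 3 (y axis), both on log scales with 1 the strongest, for all 5049 matched reproducible sites (grey), the 10 gut factor sites (coloured) and the byn pooled peaks found in both replicates (open). The line marks equal ranks; 9 of the 10 coloured points lie above it, which means a better rank in replicate 1.

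Counted per length, srp had the most reproducible sites of the 5 and GATAe the most pooled peaks. There were 1.79 reproducible sites per 10 kb of territory at srp, a density reached by 7.93% of all genes, 1.40 at fkh (reached by 16.2%), 0.999 at GATAe (19.7%) and 0.681 at grn (41.6%), against 0.400 per 10 kb over the arms. With the full pooled list, which includes weakly supported peaks, GATAe had 7.99 peaks per 10 kb (reached by 2.41% of genes) and srp 6.80 (5.72%), followed by grn with 4.99 (18.3%), fkh with 4.90 (19.1%) and byn with 3.29 (40.6%). The median over all genes was 2.67. The 5 genes therefore lay above the median gene in pooled peaks, byn included, and the shared sites and peaks between srp and GATAe enter the values of both.

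**Figure D3:**
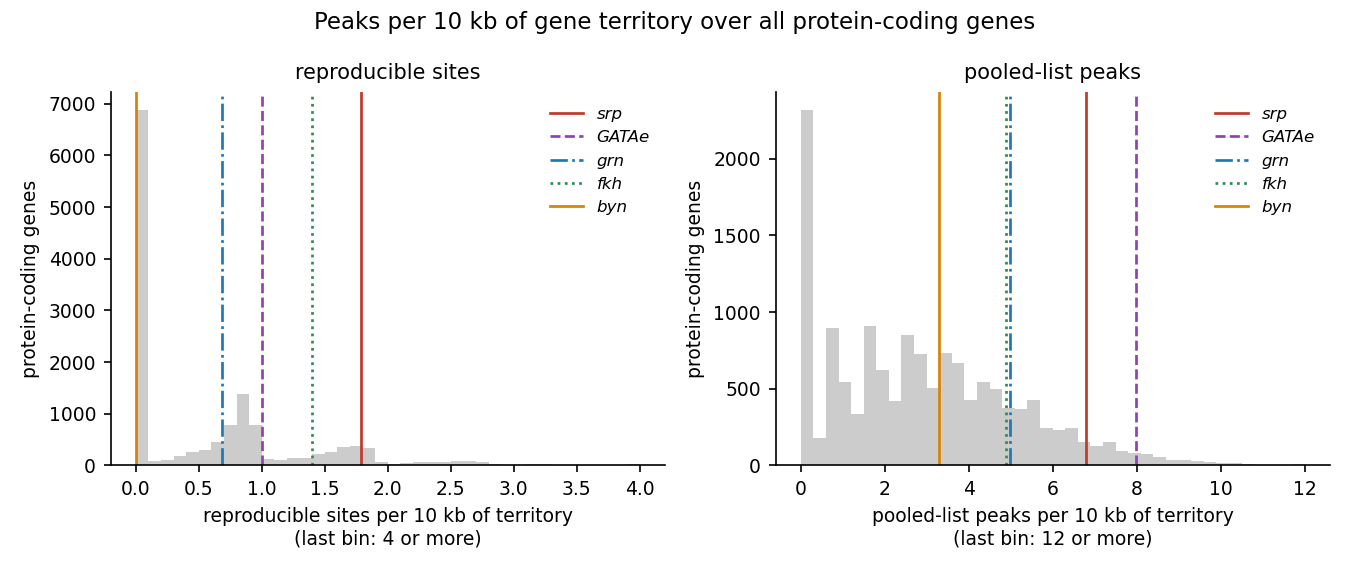
Histograms over all 13945 protein-coding genes of reproducible sites (left) and pooled-list peaks (right) per 10 kb of territory, with a line for each of the 5 genes. On the left byn stands at 0 and srp at 1.79; on the right byn stands at 3.29 and GATAe at 7.99.

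Below the reproducible list, the territories held 54 further pooled peaks, with signals from 31.8 to 119 and a median of 43.2, against 46.9 over all 24646 pooled peaks below the list. Of the 54, 17 (31.5%) had a summit within 100 bp in both replicate lists, close to the 29.7% of all such peaks. At srp there were 14, at GATAe 14, at grn 19, at fkh 5 and at byn 6, with those between srp and GATAe counted for both. Of the 54, 26 lay in introns and 6 in exons, and 6 lay within 500 bp of a TSS. No share over all pooled peaks below the list is given for these positions, so the counts only describe the 54. At the first srp start site, a pooled peak 154 bp upstream had a signal of 47.0 (rank 17592) and a partner in replicate 3 alone (rank 11841). The strongest of the 54 after those at byn and grn was at fkh, 3616 bp upstream of the TSS (signal 106, rank 6881).

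Short motifs were searched within 50 bp of each summit on both strands. They were GATAAG for GATA factors, TGTTTA and TGTTTG for forkhead factors, AGGTGT for T-box factors, TAATTA for homeodomains, CAAGTG for the NK2 class, CAGGTA for Zelda, GAGAG for GAGA factor, TATAAA for the TATA box and TATCGATA for DREF. TGTTTA and TGTTTG share all but their last letter, so a single position cannot match both, and TGTTTA can overlap TATAAA read on the other strand.

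Forkhead letters were the ones most often found. TGTTTG was at 4 of the 10 summits (15% of all reproducible sites) and TGTTTA at 3 (18.7%), and 5 of the 10 held either, against 29.7% of all sites, a combination chosen after the values were seen. The second fkh site held both, read as TAAACA and CAAACA on the plus strand, starting 20 and 13 bp before the summit. The stronger site between srp and GATAe also held both, starting 24 and 11 bp before the summit, and 3.96% of all sites did. At grn, the strongest site and the one 9739 bp from the TSS held TGTTTG. The intronic srp site held TGTTTA.

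The T-box letters AGGTGT were at 2 summits, the strongest srp site and the weaker shared site, against 3.08% of all sites. TATAAA was at 2 (24.3% of all) and CAAGTG at 1, the intronic srp site (4.8% of all). GATAAG (6.2% of all sites), TAATTA (10.6%), GAGAG (8.61%), CAGGTA (1.87%) and TATCGATA (1.16%) were at none. In all, 7 of 10 summits had some preset motif, against 64.2% of all sites. With 10 sites these shares carry little precision, and a match is a description of letters and not of a bound factor.

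The fkh promoter site stood apart in base composition. It had a GC content of 59.4% within 50 bp of the summit, and 0.560% of all reproducible sites had as much or more. The 10 sites had a median GC content of 34.2%, from 24.8% at the second upstream srp site, against 31.7% over all sites, for which the quartiles were 25.7 and 38.6%. The fkh promoter site held none of the preset motifs. The strongest byn peak had a GC content of 35.6%. Of the 10, 6 were narrower than the usual peak width of 404 bp, against 46.8% of all sites, and these 6 were the ones of highest signal.

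The best reproducible ranks, 1012 at fkh, 1165 at srp, 1183 at grn and 2752 at GATAe, with no reproducible site at byn, were set beside those of 18 other regulators of gut and endoderm. Of these 18, 13 had a reproducible site in the territory (50.8% of all genes did). The list was written with earlier results of these data known, and its median gene had 2 sites. The median best rank was 708 for the 13, and 1826 over all genes with a site. The median territory of the 18 was 22413.5 bp, flanks of 5 kb on either side included, and the median gene body over all genes was 2166 bp. Longer territories can hold more sites, and so a stronger best one. The strongest were at ush, which encodes a partner of GATA factors (rank 7, nearest to the TSS of cbt), at the zinc finger gene bowl (rank 103) and at the homeobox gene otp (rank 150, nearest to the TSS of Cib2). They were followed by the Hox gene lab (rank 365), the Cdx homologue cad (rank 567, nearest to Pomp), the Pitx homologue Ptx1 (rank 678), the zinc finger gene drm (rank 708) and the Hox gene Abd-B (rank 916).

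The rest of the list ranked lower or had none. The strongest sites lay at rank 1161 for kni, 2031 for retn, 2166 for hh, 2347 for lin and 2743 for wg. The terminal gap genes hkb and tll, the homeobox genes dve and en, and the ligand gene upd1 had none, like byn. All 5 had pooled peaks below the list, from 1 at upd1 to 18 at dve. Over all protein-coding genes, 33.1% had a pooled peak without a reproducible site. For 6 of the 13 the strongest site was nearest to the TSS of another gene. Over all protein-coding genes, 50.8% had a site in the territory and 23.8% had any site nearest to their own TSS. In replicate 1 the strongest site ranked higher than in replicate 3 for 9 of the 13. Of all matched reproducible sites, not only the strongest of each gene, 47% did.

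**Figure D4:**
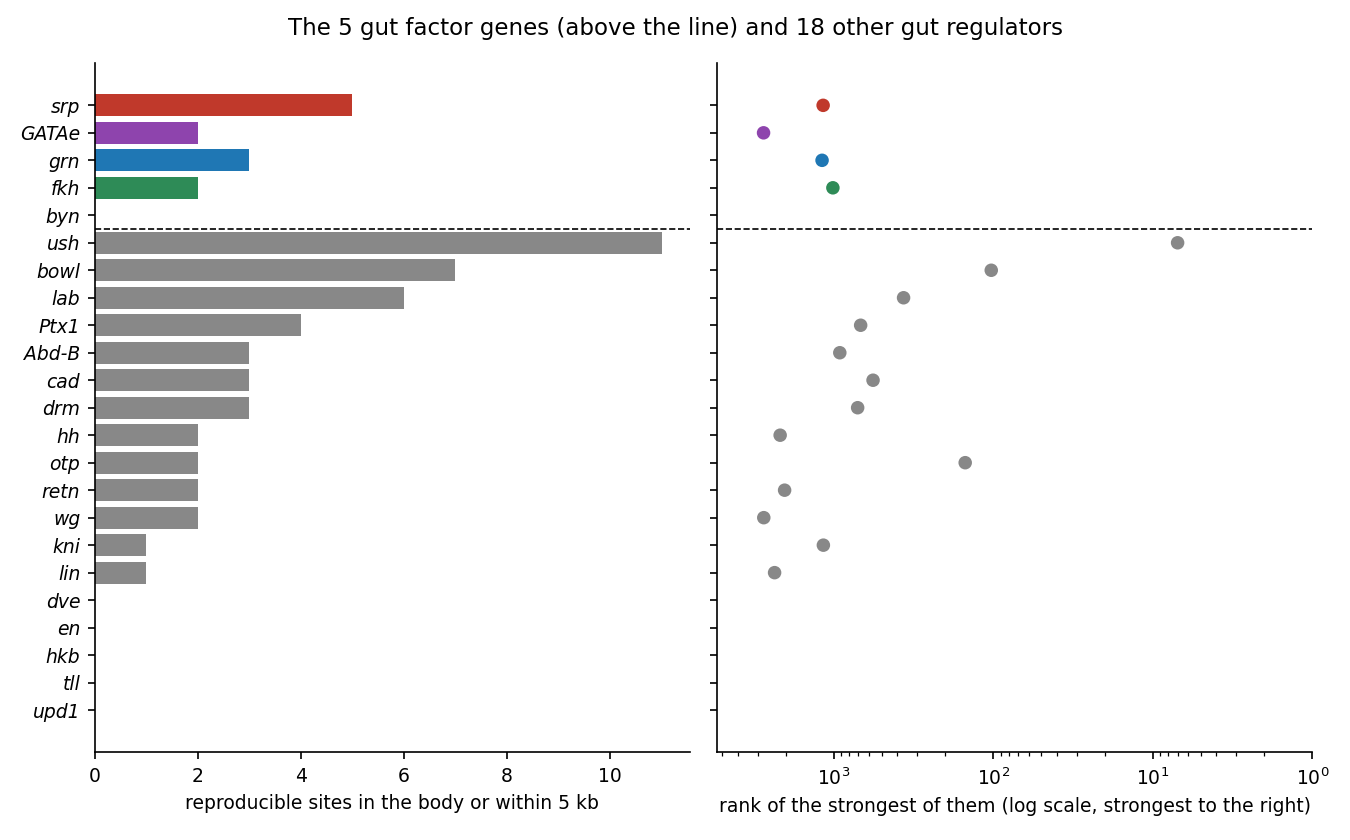
Number of reproducible sites in the body or within 5 kb (bars, left) and rank of the strongest of them on a reversed log axis (points, right) for the 5 gut factor genes, above the dashed line, and 18 other gut regulators. The 5 genes have between 0 and 5 sites, the 4 with a site have best ranks from 1012 to 2752, and ush has 11 sites with a best rank of 7.

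By the number of sites and the log2 signal of the strongest one in the reproducible list and in both replicates, the gene most like fkh among 6745 genes was cathD (Euclidean distance 0.0718 over these 4 values, from 2 replicates), with 2 sites and a best rank of 993. For grn it was Scsalpha2 (distance 0.0845), with 3 sites and a best rank of 1087. For GATAe it was opa (distance 0.136), with 2 sites and a best rank of 2921. For srp it was loco (distance 0.203), with 5 sites and a best rank of 1155.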

How the data were processed

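The authors called peaks on each replicate and on both together, each against 1 control alignment on dm6, and derived an IDR list from these, per the labels and deposited notes. The caller, its thresholds and the read depth were not given in the sources used here. Each deposited peak has a signal value, a score of unstated scale by which ranks were set, a deposited −log10 q value with a ceiling near 4, not used for ranking, and a deposited summit offset.

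Genes came from Ensembl release 115 and sequence from the RefSeq copy of Release 6. No peak extended past its arm. Analysis used Python 3.11.15 and pandas 2.3.3. A summit counted for a gene in its body or within 5 kb. Replicate partners were summits within 100 bp. Assignment, matching and motif search were tested on simulated data. No test was run, since there is 1 group. The members and lists were chosen with earlier results of these data known. The named genes are the 5 members, genes in or nearest to their territories, the most similar gene to each, and list genes with a site. The 6 list genes named as having none (hkb, tll, dve, en, upd1 and H15) were chosen after their values were seen.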

Additional observations from a re-analysis of the deposited data

How the results depend on the processing

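No paired analysis was possible because both samples belong to 1 group. The number of the 5 genes with a site was 4 with the list of either replicate alone, and the number of sites was 10 without replicate 3 and 11 without replicate 1. With the 2677 strongest sites alone, the territories held 5 sites and 33.5% of all genes had one. With the full pooled list they held 64 peaks and 83.8% of all genes had one. A promoter window of 200 bp gave 0 promoter sites and one of 1000 bp gave 2. No share over all reproducible sites is given for these windows, so the counts only describe the 10. With territories of 2 kb, 3 of the 5 genes had a site, as did 37.2% of all genes. These territories held 8 sites, with 0 at GATAe and 3 at srp. Replicate ranks of the strongest site moved by more than 1.5 times from the reproducible rank at srp in both replicates, and at GATAe and grn in replicate 1. The depth is unknown, so no limit on undetected sites can be given.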

Other observations

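Other genes of the same protein families also had reproducible sites in the body or within 5 kb, a description with no test. Both further GATA genes did, GATAd with 2 (best rank 1513) and pnr with 1 (rank 1387), so all 5 of the family had a site. Of 16 forkhead genes besides fkh, 9 had a site, the strongest at slp1 (rank 32), slp2 (rank 128) and CHES-1-like (rank 232, 10 sites), and the other 7 had none. Among the 9, fd102C had only 1 site (rank 4847), which had no partner in either replicate list. Of 7 T-box genes besides byn, 6 had a site, the strongest at org-1 (rank 92) and at Doc2 and Doc3, which share the site of rank 148 nearest to the TSS of CG5194. H15 shared with byn the lack of a reproducible site. Over all protein-coding genes the share with a site was 50.8%. Neighbouring genes such as slp1 and slp2 can share sites and are not independent.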
